A study of Mus musculus with 6 samples.

Results

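A block of 7 CXC chemokine genes lies on mouse chromosome 5, in the order Cxcl5, Ppbp, Pf4, Cxcl3, Cxcl15, Cxcl1 and Cxcl2 in the RefSeq gene table. Each was read by 1 probe, so the group held 7 of the 15967 genes named on the array and 7 of its 24611 probes, chosen by the gene symbol in the platform annotation. The genes were picked because Cxcl5 was known to have the largest rise in this comparison and because Pf4, which lies 2 genes further along, lent its promoter to the Cre recombinase used. The knockout minus wild-type differences of the members are therefore given as descriptions. The data came from 6 mouse Illumina bead arrays. The 3 knockout (KO) samples, labelled SRF-/-, were made in the C57BL/6 strain with PF4-Cre, and the 3 wild-type (WT) samples, labelled SRF+/+, were of the same strain. All 6 were lineage-depleted bone marrow cells kept overnight in stem cell factor and thrombopoietin, sorted as CD41+ c-kit+ megakaryocyte progenitors and grown for 3 more days in thrombopoietin. The labels give neither the animals' age nor the part of Srf removed, and they do not say whether the wild-type mice carried the Cre transgene or how it was built.

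CXC chemokines are small secreted proteins named for a pair of cysteines with 1 residue between them. Pf4 (platelet factor 4, also CXCL4) and Ppbp (pro-platelet basic protein, the precursor of CXCL7) are made by megakaryocytes and stored in platelet alpha granules. Cxcl1, Cxcl2, Cxcl3 and Cxcl5 attract neutrophils through the receptor CXCR2 and are induced in many cells by interleukin-1, interleukin-17 and Toll-like receptor signals that act through NF-κB. Cxcl15, or lungkine, is known mainly from lung epithelium. The deleted gene, Srf, encodes serum response factor, which recognises the CArG box and is known for control of actin genes.

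The arrays detected between 9801 and 10364 probes each, detection meaning a p under 0.05 against the negative control beads. Values below are log2 intensities after background correction and quantile normalization unless they are called raw. The Srf probe tested lay at 7.35, 7.56 and 7.20 in the knockout arrays, against 12.31, 11.89 and 11.98 in the wild-type arrays. Megakaryocyte markers were present throughout: all 8 of the listed genes on the array, such as Gp5 and Vwf, were detected on every array. The wild-type arrays were not alike. Primary granule genes of the neutrophil lineage, such as Mpo, were high on knockout replicate 1 and on wild-type replicates 2 and 3. The mast cell and basophil genes Cpa3 and Mcpt8 were high on wild-type replicates 2 and 3.

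The members Cxcl5, Ppbp and Pf4 were detected on all 6 arrays. The other 4 were detected on at most 1 array. Only the first 3 passed the filter that a probe be detected on all 3 arrays of at least 1 group, so a fit value exists for 3 of 7 members.

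**Figure D1:**
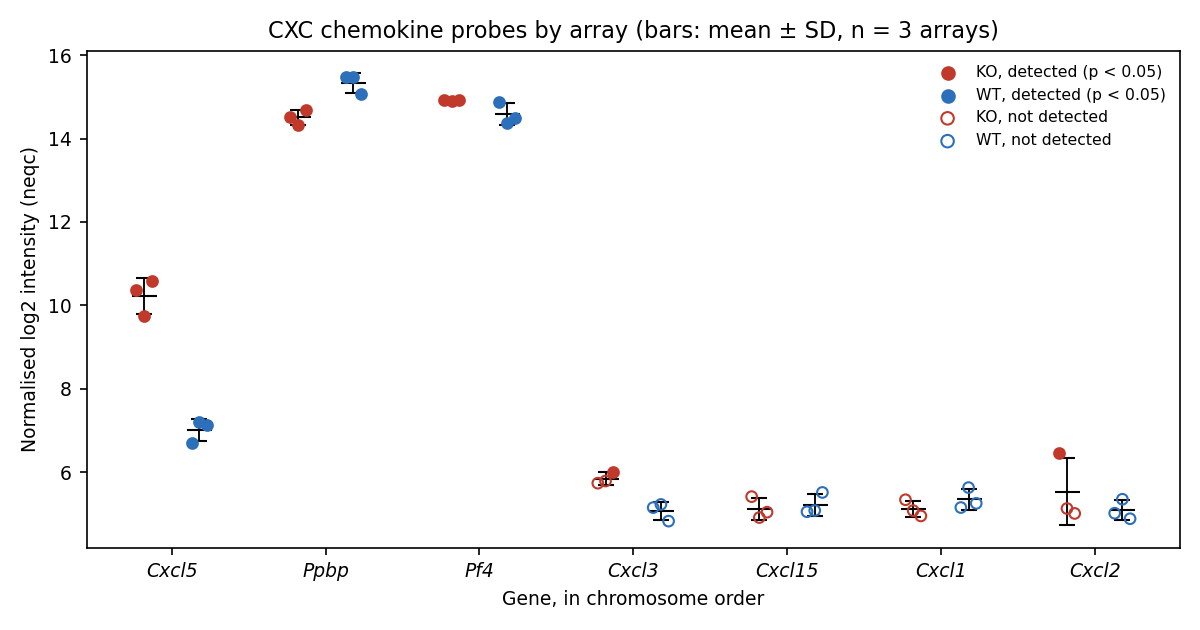
Normalised log2 intensity (vertical axis) of the 7 chemokine probes, in chromosome order along the horizontal axis, for each knockout (red) and wild-type (blue) array; filled points passed detection, open points did not, and bars are the mean ± SD of 3 arrays. Cxcl5 lies higher in the knockout, Ppbp lower, and the 4 genes from Cxcl3 onward sit near the floor with 2 filled points in all.

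Cxcl5, also called LIX, was the member with the widest gap between the groups. Its raw intensity was 1213, 1233 and 2044 in the knockout arrays, against 266, 285 and 255 in the wild-type arrays. Every knockout array was thus several times brighter than every wild-type array, and knockout replicate 3 was the brightest. The standard error over the 25 to 35 beads of the probe was between 5.39% and 10.8% of the signal, a spread within each array and not between samples. The probe was detected in the wild-type as well, with detection p of 0.0134, 0.00608 and 0.00608, so the wild-type level was low and measurable.

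After normalization Cxcl5 lay at 10.36, 9.75 and 10.58 in the knockout arrays, against 6.71, 7.19 and 7.14 in the wild-type arrays. The means were 10.23 ± 0.43 in the knockout and 7.01 ± 0.26 in the wild-type (SD, n = 3 each), a difference of 3.22 on the log2 scale (SE 0.24) or 9.32-fold. The groups did not overlap, which the choice of this gene had already drawn on. The full range inside a group was 0.83 in the knockout and 0.48 in the wild-type. Because the wild-type signal was close to background, the size of the fold depended on how background was treated. The raw means, with no background removed, gave 5.57-fold. The authors' processed values were 10.32 ± 0.35 in the knockout and 8.54 ± 0.072 in the wild-type, which is 1.78 on their scale, and that scale has a raised floor. Among all 9403 tested probes, 2 were higher in the knockout at an adjusted p under 0.05 (0.0213%) and 13 were lower (0.138%). Without wild-type replicate 1 these counts were 351 higher and 288 lower, and without any 1 other array between 7 and 11 probes passed in all. Cxcl5 was one of those 2, which is how it was chosen, so nothing further is read from that call.

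**Figure D2:**
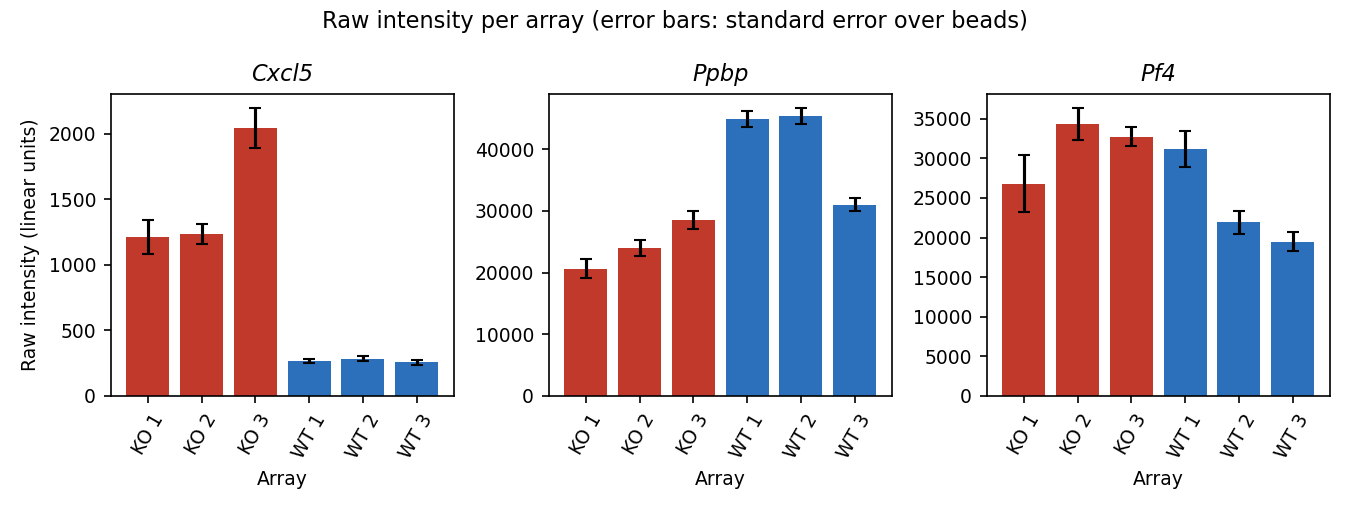
Raw intensity on a linear scale (vertical axis) of the Cxcl5, Ppbp and Pf4 probes on each array, knockout in red and wild-type in blue; error bars are the standard error over beads. Cxcl5 is at 1213 or more on each knockout array and at 285 or less on each wild-type array, Ppbp is dimmer on each knockout array, and the Pf4 bars of the groups overlap.

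Ppbp, the gene next to Cxcl5, went the other way in value. Its raw intensity was 20608, 24005 and 28481 in the knockout arrays, against 44922, 45431 and 30991 in the wild-type arrays. Here too the groups did not overlap, although knockout replicate 3 and wild-type replicate 3 came close. Normalised values were 14.51, 14.34 and 14.69 in the knockout, against 15.47, 15.47 and 15.06 in the wild-type. Wild-type replicates 1 and 2 share a value because the probe held the same rank on both and quantile normalization gives equal ranks equal values. The means were 14.51 ± 0.18 in the knockout and 15.33 ± 0.23 in the wild-type (SD, n = 3 each). The difference of -0.82 (SE 0.17) corresponds to a level 1.76-fold lower in the knockout, and it did not pass over all probes (limma adjusted p = 0.25). The probe stood below the highest raw value of its own array, which was between 47083 and 54013. On wild-type replicates 1 and 2 it ranked 7 by raw intensity, where the highest values were 51483 and 52124. Whether signal flattens near the top of the scale was not tested. Non-overlapping groups were common in this comparison, at 1773 of 9403 tested probes (18.9%), with 919 above (9.77%) and 854 below (9.08%) in the knockout. All 3 tested members were among them, a count that the choice of genes had already drawn on.

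The RefSeq promoter table of assembly GRCm38.p6 covers 250 bases before to 50 after each gene's start. It held a window for all members but Cxcl5, whose promoter was not searched. The upstream part is shown for Ppbp because it holds a match to the CArG box, the sequence that serum response factor binds, and for Pf4 because that gene's promoter drove Cre. Capitals mark the CArG box match in Ppbp and, in Pf4, a match on the reverse strand to GGAAGT, a core letter pattern of ETS family factors. Both run 5′ to 3′ on the plus strand.
Ppbp, chr5:90768268-90768517: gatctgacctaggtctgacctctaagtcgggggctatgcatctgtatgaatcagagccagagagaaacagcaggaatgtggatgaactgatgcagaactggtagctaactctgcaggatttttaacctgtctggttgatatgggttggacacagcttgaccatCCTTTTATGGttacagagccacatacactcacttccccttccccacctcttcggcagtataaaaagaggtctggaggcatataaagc
Pf4, chr5:90772185-90772434: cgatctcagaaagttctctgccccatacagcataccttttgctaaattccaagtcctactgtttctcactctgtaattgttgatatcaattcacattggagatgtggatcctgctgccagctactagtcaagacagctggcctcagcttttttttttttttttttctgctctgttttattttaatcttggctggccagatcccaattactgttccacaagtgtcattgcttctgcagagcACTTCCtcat

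The CArG box match of Ppbp began at position -87, counted from the annotated start. Such a match was held, on either strand, by 535 of 32851 promoter windows (1.63%), and by none of the other 5 member windows. GGAAGT was found in 23.8% of windows on either strand. In Pf4 it began at position -10, and Ppbp held it at -57. Ppbp also held TATAAA at -30 and -8 (13.6% of windows). Pf4 held GATAA, the core pattern of GATA factors, at position 38 after its start (25.4% of windows). The ETS pattern CCGGAA lay on its reverse strand at position 15 (14.9% of windows). A match is a string of letters, and whether any factor occupies it was not measured here.

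Pf4 was strongly expressed in both groups. Its raw intensity was 26806, 34356 and 32725 in the knockout arrays, against 31159, 21913 and 19468 in the wild-type arrays, so raw values overlapped. Normalised values were 14.93, 14.90 and 14.92 in the knockout, against 14.88, 14.38 and 14.49 in the wild-type. The knockout arrays were almost level with one another, and wild-type replicate 1 lay just under them, while wild-type replicates 2 and 3 were lower. The means were 14.92 ± 0.012 in the knockout and 14.58 ± 0.26 in the wild-type (SD, n = 3 each). The difference was 0.33 (SE 0.16, limma adjusted p = 0.40). It shrank to 0.036 when wild-type replicates 2 and 3 were left out and to 0.14 with each array scaled to its 75th percentile. The bead standard error of this probe was up to 13.5% of the signal, on knockout replicate 1, with 15 to 28 beads per array. The arrays measure bulk RNA, in which fewer cells of a type and less RNA per cell cannot be told apart. The 8 megakaryocyte markers on the array were all higher in the knockout by mean, beside 3368 of 6869 tested named genes. For some of them, such as Gp6 and Vwf, the groups overlapped. The part of megakaryocyte content in the Pf4 and Ppbp values was not tested.

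Ppbp and Pf4 are both granule chemokines of the same cells and next to each other on the chromosome. A ratio of probes within an array needs no scaling between arrays. Any flattening of signal near the top of the scale would enter the ratio and was not tested. The raw Ppbp to Pf4 ratio was 0.769, 0.699 and 0.870 in the knockout arrays, against 1.44, 2.07 and 1.59 in the wild-type arrays. The groups did not overlap, with means of 0.779 ± 0.086 in the knockout and 1.70 ± 0.33 in the wild-type (SD, n = 3 each). A ratio of this kind shows unequal change of the pair and not which of them changed. Wild-type replicate 1 had the lowest wild-type ratio and still lay well above the highest knockout ratio. Normalised Ppbp lay lower and normalised Pf4 higher in the knockout, each without overlap. The split of the ratio restates those values and is no separate result. Raw Cxcl5 signal came to 4.52%, 3.59% and 6.25% of raw Pf4 signal in the knockout arrays, against 0.854%, 1.30% and 1.31% in the wild-type arrays. No background was removed from these percentages. Raw Cxcl5 in the wild-type arrays, at 266, 285 and 255, was not far above the array medians of 202, 182 and 174. Background is thus part of the wild-type percentages, and the size of the gap depends on it. Probes differ in brightness per transcript, so such a percentage is only followed between arrays and does not give the relative amount of the 2 transcripts.

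Loss of Srf and any copies of chemokine sequence carried by the Cre transgene would fall on the same arrays if the wild-type mice lacked the transgene. Their parts in the values of Cxcl5, Ppbp and Pf4 cannot be told apart in this design.

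The remaining neutrophil attractants gave little signal. Cxcl3 lay at 5.73, 5.78 and 6.01 in the knockout arrays, against 5.15, 5.22 and 4.82 in the wild-type arrays. Of the 6 arrays, knockout replicate 3 alone was above background. The detection p-values were 0.103, 0.0973 and 0.0438 in the knockout arrays, against 0.599, 0.476 and 0.979 in the wild-type arrays. The groups did not overlap, but a level below background in the wild-type and on 2 of 3 knockout arrays gives no fold. Cxcl2, also called MIP-2, lay at 6.46, 5.13 and 5.01 in the knockout arrays, against 5.01, 5.35 and 4.88 in the wild-type arrays. It was above background on knockout replicate 1 alone. The summed neutrophil marker list was larger on wild-type replicates 2 and 3. Some genes of that list, such as S100a8, S100a9 and Camp, were instead highest on knockout replicate 1. The part of neutrophil-lineage cells in the Cxcl2 values was not tested. Cxcl1, also called KC, was detected on no array, at 5.34, 5.08 and 4.95 in the knockout, against 5.15, 5.63 and 5.25 in the wild-type. Cxcl15 was likewise detected on no array, at 5.41, 4.91 and 5.04 in the knockout, against 5.05, 5.08 and 5.51 in the wild-type. For Cxcl1, Cxcl2 and Cxcl15 the groups overlapped.

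The promoters of Cxcl3, Cxcl1 and Cxcl2 share an NF-κB consensus match, which is shown because these 3 attractants are known NF-κB targets and were at or near background here. Cxcl15, also near background, held no such match. Cxcl5 had no promoter window and was not searched. Capitals mark the match, made of 2 overlapping matches, 1 on each strand.
Cxcl3, chr5:90786003-90786062: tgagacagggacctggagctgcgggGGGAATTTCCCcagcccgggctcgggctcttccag
Cxcl1, chr5:90891149-90891208: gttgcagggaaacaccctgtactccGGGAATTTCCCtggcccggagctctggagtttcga
Cxcl2, chr5:90903777-90903836: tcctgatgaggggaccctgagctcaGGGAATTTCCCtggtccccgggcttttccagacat

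The stretches are from GRCm38.p6, plus strand, and the match began at position -73 in Cxcl3, -71 in Cxcl1 and -97 in Cxcl2. The same run of 11 letters was in 14 of the 32851 windows on either strand (0.0426%), while the looser NF-κB consensus was in 8.46%. The windows of Ppbp, Pf4 and Cxcl15 held no match to that consensus. Nothing follows from these letters about the activity of the factor in these cells.

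Genes on either side of the chemokines were also near the floor. Of the 6 genes before Cxcl5 and the 6 after Cxcl2 in the gene table, 4 had a named probe, and none was detected on any array. Rassf6, the nearest of them before Cxcl5, averaged 5.42 in the knockout and 5.39 in the wild-type, and Epgn, the nearest after Cxcl2, averaged 5.35 in the knockout and 5.24 in the wild-type. Afm and Ereg, which encode afamin and the growth factor epiregulin, gave differences of -0.11 and -0.11.

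Markers of other cells that make or answer to these chemokines were set beside them, as the summed linear level of each list. The neutrophil list, with Mpo and S100a8 the brightest of 14 genes on the array, summed to 29939, 1971 and 3110 in the knockout arrays, against 2247, 48504 and 57886 in the wild-type arrays. Between 8 and 11 of its genes were detected per array, and Mmp8 and Mmp9 on none. Members of the list did not move together. Mpo lay at 13.07, 8.13 and 8.98 in the knockout arrays, against 7.64, 14.74 and 14.93 in the wild-type arrays. The secondary granule gene Camp lay at 9.61, 7.92 and 8.44 in the knockout arrays, against 7.68, 8.03 and 7.88 in the wild-type arrays. Ngp and Ltf, further secondary granule genes, were likewise highest on knockout replicate 1 and not raised to that level on wild-type replicates 2 and 3. Cxcl5 was high on knockout replicates 2 and 3, where the neutrophil sum was low. It was low on wild-type replicates 2 and 3, where that sum was high. The part of neutrophil-lineage cells in the Cxcl5 values was not tested.

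The mast cell and basophil list of 15 genes, led by Gata2 and Cpa3, summed to 6581, 6608 and 6734 in the knockout arrays, against 6061, 19245 and 21990 in the wild-type arrays. Between 2 and 8 of its genes were detected per array, and the mast cell proteases Mcpt4, Mcpt1, Mcpt2 and Cma1 on none. Gata2, which megakaryocyte progenitors also express, made up most of the sum on the knockout arrays and on wild-type replicate 1. It lay at 12.47, 12.51 and 12.50 in the knockout arrays, against 12.41, 12.84 and 12.82 in the wild-type arrays. On wild-type replicates 2 and 3 Cpa3 was about as bright as Gata2. Cpa3, a mast cell and basophil protease, differed far more, at 8.21, 7.17 and 8.09 in the knockout arrays, against 6.62, 12.64 and 12.88 in the wild-type arrays. Mcpt8, a basophil protease, lay at 6.10, 6.14 and 6.83 in the knockout arrays, against 5.49, 11.45 and 11.97 in the wild-type arrays. In fold terms Cpa3 and Mcpt8 rose far more on wild-type replicates 2 and 3 than the sum did. Wild-type replicates 2 and 3, where this sum was high, were the arrays with lower Pf4, whereas wild-type replicate 1 had Pf4 near the knockout level. The part of these cells in the Pf4 difference was not tested. Without those 2 arrays the Cxcl5 difference was 3.52 and the Ppbp difference -0.95, with 1 wild-type array left.

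**Figure D3:**
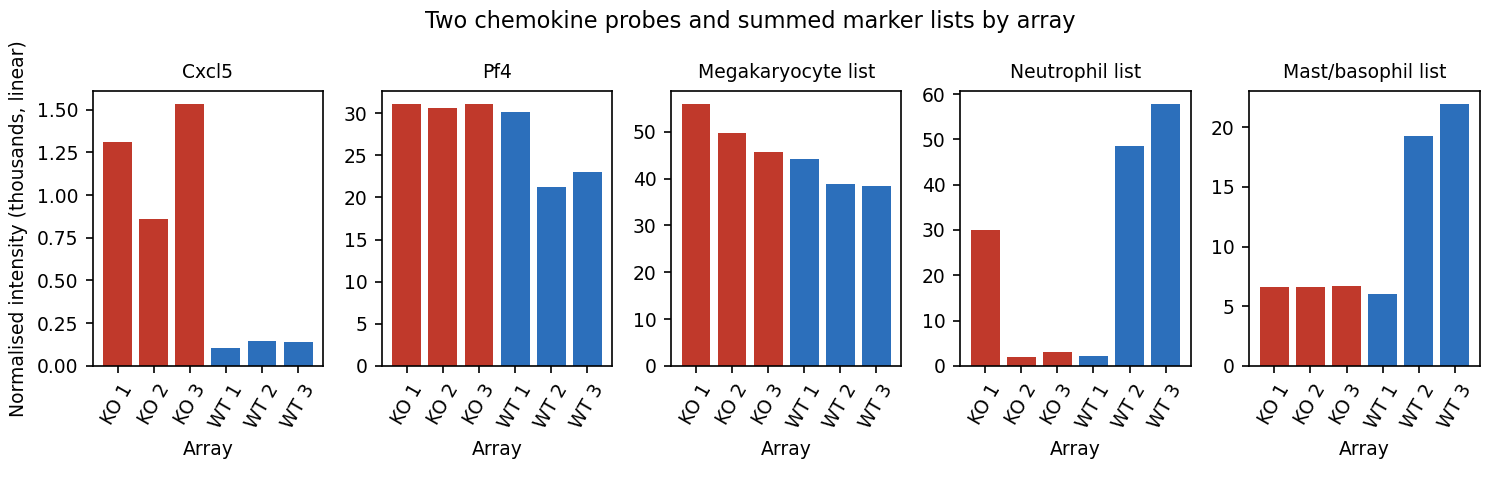
Normalised intensity on a linear scale, with units as printed on the axes (vertical axes, each from 0) of Cxcl5 and Pf4 and of the summed megakaryocyte, neutrophil and mast cell or basophil marker lists, on each knockout (red) and wild-type (blue) array. Neutrophil sums are high on knockout replicate 1 and wild-type replicates 2 and 3, and Cxcl5 is high on each knockout array.

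Fibroblast, stromal and endothelial cells are known makers of Cxcl5. Their list of 12 genes summed to between 493 and 508 in the knockout arrays, against 510 to 584 in the wild-type arrays, with at most 1 gene detected per array. The collagen genes Col1a1, Col1a2 and Col3a1 and the endothelial genes Cdh5 and Kdr were detected on none. The part of such cells in the Cxcl5 values was not tested. The monocyte and macrophage list of 12 genes summed to between 3216 and 5217 in the knockout arrays, against 3106 to 3787 in the wild-type arrays, and its ranges overlapped. Lyz2 and Mrc1 were its brightest genes, 2 to 5 genes were detected per array, and Cd14, Ccr2 and C1qb were detected on none. Members of this list did not move together. Adgre1 lay at 5.51, 5.82 and 5.66 in the knockout arrays, against 5.23, 7.62 and 8.38 in the wild-type arrays. Adgre1 and Fcgr1 were detected only on wild-type replicates 2 and 3, whereas Mrc1 was lowest on those arrays. The lymphoid list of 8 genes summed to between 756 and 1001 in the knockout arrays, against 675 to 2469 in the wild-type arrays. The megakaryocyte list summed to between 45637 and 56040 in the knockout arrays, against 38387 to 44219 in the wild-type arrays, and its ranges did not overlap; its part in the Pf4 difference was not tested.

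Most of the listed receptors gave little signal, while Cxcr4 and Ackr1 were detected on every array. Of 9 listed CXC receptors and atypical receptors on the array, 6 were detected on no array, and these included Cxcr1 and Cxcr2, the receptors of the neutrophil attractants. Of the 2 tested receptors, none passed in either direction, beside 11 of 6869 tested named genes overall (0.16%). Ackr1, an atypical receptor that binds CXC and CC chemokines without G protein signalling, lay at 8.33, 8.25 and 7.66 in the knockout arrays, against 7.15, 6.84 and 6.66 in the wild-type arrays. Its groups did not overlap, and the difference was 1.20 (SE 0.22, limma adjusted p = 0.19). Cxcr4, the receptor of CXCL12 that retains cells in bone marrow, averaged 9.91 ± 0.10 in the knockout and 9.88 ± 0.052 in the wild-type (SD, n = 3 each), a difference of 0.033 (SE 0.13).

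No other chemokine passed the test with all arrays. All 8 other CXC ligands listed, from Cxcl9 to Cxcl14 with Cxcl16 and Cxcl17, were detected on no array. Of 19 CC and CX3C chemokines and Xcl1 on the array 6 were tested and none passed, with 1 higher and 5 lower in the knockout by mean (median -0.62, against -0.0072 over all tested named genes). The 1 higher was Ccl2, a chemokine that draws monocytes, at 8.26, 7.40 and 7.17 in the knockout arrays, against 6.11, 6.46 and 6.36 in the wild-type arrays. It was detected on 3 knockout and 2 wild-type arrays, with a difference of 1.30 (SE 0.28, limma adjusted p = 0.25). Cx3cl1, the membrane-bound chemokine fractalkine, differed by -1.11 (SE 0.29, limma adjusted p = 0.29), and Ccl4, a macrophage inflammatory protein, by -0.84 (SE 0.53, limma adjusted p = 0.47). Ccl4 was high on knockout replicate 1 (7.62) and on wild-type replicates 2 and 3 (7.81 and 7.92), the arrays rich in Mpo. Ccl9, a CC chemokine of myeloid cells chosen after its values were seen, lay at 8.78, 7.18 and 7.34 in the knockout arrays, against 6.15, 10.89 and 10.87 in the wild-type arrays (limma adjusted p = 0.56). Ccl9 and Cx3cl1 passed as lower when wild-type replicate 1 was left out, and the list median was 0.066 without wild-type replicates 2 and 3.

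Genes of the signals that induce these chemokines gave 1 call, which depended on the setting. Of 11 tested genes of interleukin-1, Toll-like receptor and interleukin-17 signalling, 1 fell, none rose and 10 did not pass (median -0.14). Over all tested named genes 0.16% passed. Irak2, which encodes a kinase downstream of MyD88, fell. It lay at 5.55, 5.41 and 5.86 in the knockout arrays, against 7.88, 7.93 and 7.54 in the wild-type arrays. As no knockout array was above background it was at least 3.36-fold lower there by mean (limma adjusted p = 0.0035). Irak2 passed the detection filter only through the wild-type arrays, where it was higher, so its call is given as a description. The call was lost with the replicate block (limma adjusted p = 0.11) and with the authors' processed values (limma adjusted p = 0.074), and it held under 12 of 14 alternatives. Il1rap, the accessory chain of the interleukin-1 receptor, was above background only in the wild-type and likewise passed the filter only there. It was at least 1.21-fold lower in the knockout by mean and did not pass the test (limma adjusted p = 0.33). Irak1, a related kinase, averaged 7.90 ± 0.15 in the knockout and 8.29 ± 0.13 in the wild-type (SD, n = 3 each, limma adjusted p = 0.34).

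Of 13 tested NF-κB subunits and target genes none passed in either direction, with 7 higher and 6 lower by mean and a median of 0.064. Bcl3, an IκB family cofactor, differed by 0.86 (SE 0.34, limma adjusted p = 0.35), Nfkbiz, another such cofactor, by 0.51 (SE 0.21, limma adjusted p = 0.35) and the inhibitor Nfkbib by 0.43 (SE 0.19, limma adjusted p = 0.38). Wild-type replicate 1 had Bcl3 at 7.95, between the knockout values of 8.18, 7.96 and 7.86, and the low wild-type values came from replicates 2 and 3 (6.96 and 6.51).

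Of 10 tested transcription factors of the Pf4 promoter or of megakaryocytes none passed in either direction (median 0.066). The 3 with the smallest p were Pbx2, a homeodomain partner of MEIS1, at 0.43 (SE 0.20, limma adjusted p = 0.39), the ETS factor Fli1 at 0.32 (SE 0.25, limma adjusted p = 0.56) and Runx1 at -0.27 (SE 0.24, limma adjusted p = 0.60). Of 10 tested genes of alpha granule cargo and of the proteoglycan core that binds Pf4 none passed either, with 9 higher and 1 lower by mean (median 0.53). Tgfb1, a stored growth factor, lay at 13.15, 13.15 and 12.98 in the knockout arrays, against 12.72, 12.07 and 11.99 in the wild-type arrays (limma adjusted p = 0.29). The coagulation factor gene F5 differed by 0.91 (SE 0.25, limma adjusted p = 0.32) and the growth factor gene Vegfc by 0.66 (SE 0.21, limma adjusted p = 0.33). As with Pf4, wild-type replicates 2 and 3 held the lower values of all 3. Without that pair the list median was 0.23. Over all 6869 tested named genes 3368 were higher by mean.

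**Figure D4:**
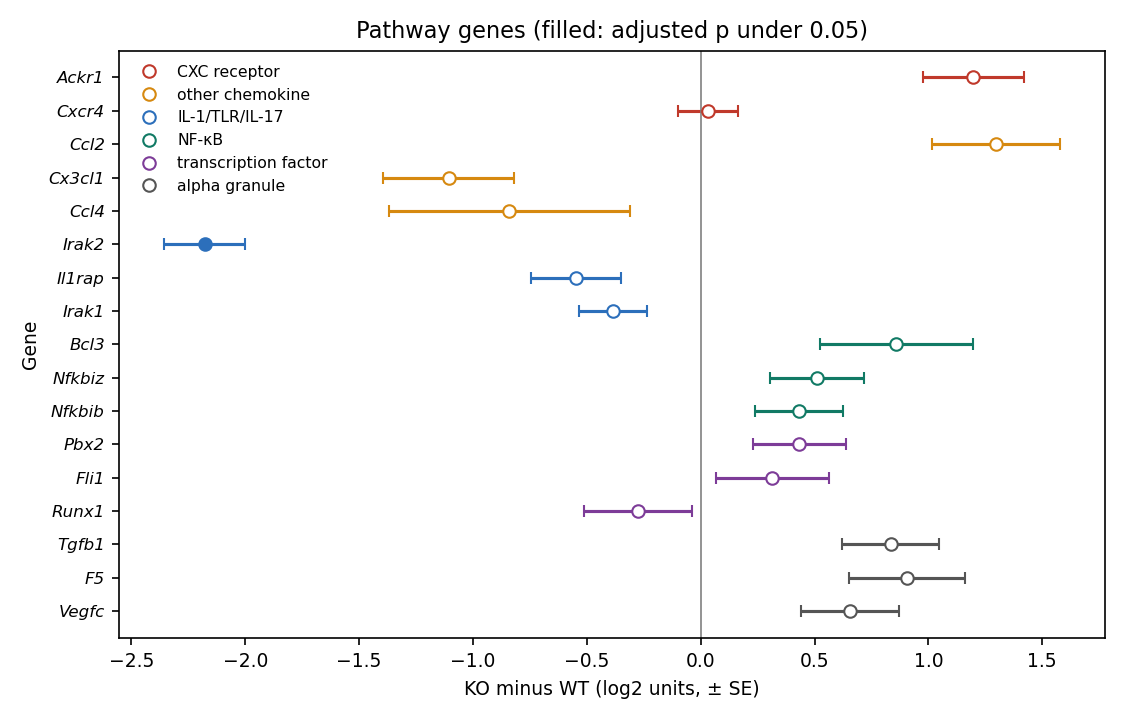
Knockout minus wild-type difference in log2 units (horizontal axis, ± SE from the fit) of the named pathway genes, coloured by list; filled points passed at an adjusted p under 0.05. Irak2, at -2.18, is the only filled point among the 17 genes drawn.

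The genes whose levels were most like each detected member over the 6 arrays were ranked by Pearson correlation among 6868 other tested genes, as a description. All 6 values of a gene share their arrays with the member, and the genotype split and the mixed wild-type arrays both enter the ranking. For Cxcl5 the closest were Akap8 (r = 0.994), Ahcyl1 (0.983), Tagln2 (0.982), Usp46 (0.979) and Bbc3 (0.978). Their changes were far smaller: Akap8, which encodes a nuclear anchoring protein of protein kinase A, differed by 0.25 and Bbc3, the pro-apoptotic gene also called Puma, by 0.85. For Ppbp the closest were Arxes2 (0.977), Mrpl36 (0.976), Lrrc8c (0.973), Irak2 (0.972) and Shq1 (0.968), each lower in the knockout by mean. For Pf4 they were Scaf1 (0.999), Pigs (0.998), Pim1 (0.997), Chst12 (0.994) and Cd180 (0.989). Scaf1, the closest of them, shows what that likeness rests on, with 10.51, 10.46 and 10.51 in the knockout arrays, against 10.43, 9.16 and 9.38 in the wild-type arrays. There, as for Pf4, wild-type replicates 2 and 3 lay lowest and wild-type replicate 1 lay close under the knockout arrays. Both low arrays are wild-type, so genotype and whatever else sets that pair apart cannot be told apart.

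The detected members differed in direction. Over the 6 arrays the correlation of Cxcl5 with Ppbp was -0.89 and with Pf4 0.67, and that of Ppbp with Pf4 was -0.62, given as descriptions of 6 points that fall into 2 genotypes. Cxcl5 stood higher and Ppbp lower in the knockout under all 14 alternative settings, and the Cxcl5 difference ran from 1.78 to 3.52. The lowest came from the authors' processed values and the highest from leaving out wild-type replicates 2 and 3. Ppbp ran from -0.98 to -0.73 and Pf4 from 0.036 to 0.48.

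**Figure D5:**
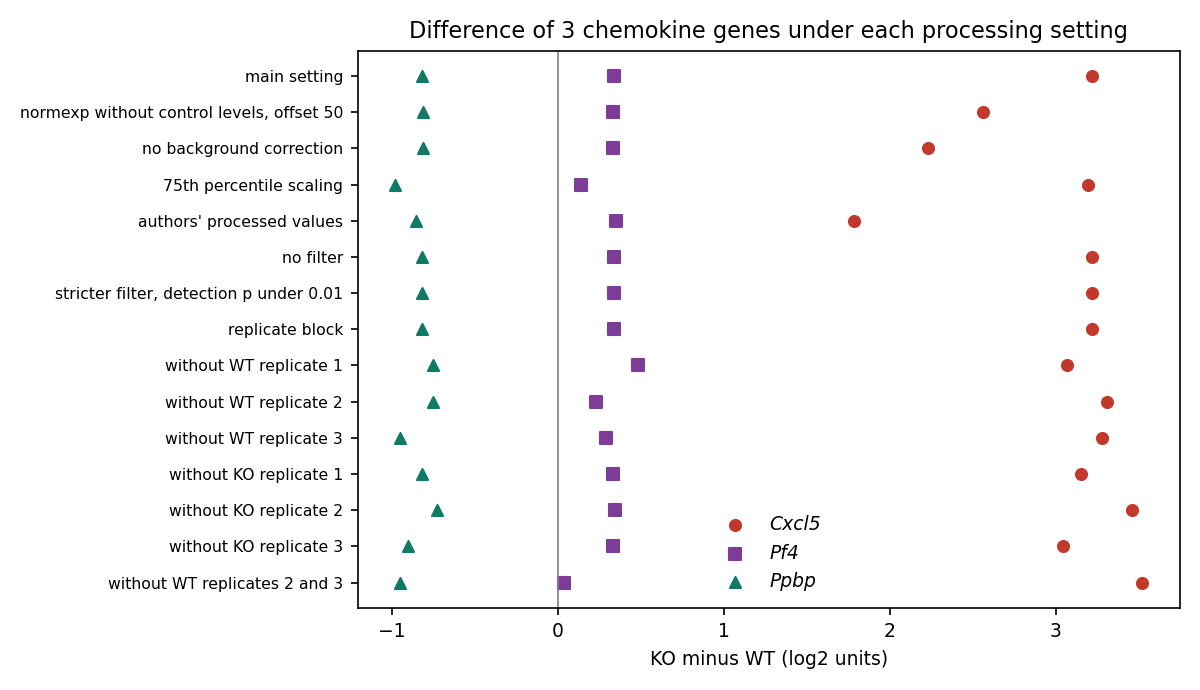
Knockout minus wild-type difference in log2 units (horizontal axis) of Cxcl5, Pf4 and Ppbp under the main setting and each of 14 alternatives (vertical axis). Cxcl5 stays at or above 1.78, Ppbp stays below 0, and Pf4 lies between 0.036 and 0.48.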

How the data were processed

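One bead array was hybridised per sample. The deposited raw table gives, per the file headers, a detection p-value for each probe, a raw intensity, the bead count and the standard error over beads. The authors' deposited processed values are on a log2-like scale whose transform is not given in the sources used here. BeadStudio 3.2 and lumi are named in the submitters' processing notes. Raw intensities were corrected with limma 3.58.1 in R 4.3.3 by normexp with control levels inferred from detection p, offset 16, quantile normalized and put on log2 (neqc). Tested probes were those with detection in each array of the knockout, the wild-type or both, at p under 0.05 (9403 of 24611), by limma's linear model with eBayes, two-sided, with Benjamini-Hochberg adjustment over all of them. Levels of different probes were set against each other to name the brightest markers of a list and as ratios followed between arrays. They were also added up in the marker list sums, whose make-up was described. Genes of the pathway lists were read through their probe of highest mean intensity, and the text names those past the threshold and the 3 with the smallest p. The members and lists were chosen with earlier results of these data known. Symbols came from the platform annotation, and 20967 of 20983 matched RefSeq by gene number. No label ties a replicate to a mouse, and the p-values thus reflect variation between samples that may be technical. The fit and motif search were tested on simulated data. With 3 arrays per group, the number of arrays limits the precision.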

Additional observations from a re-analysis of the deposited data

How the results depend on the processing

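The 14 alternatives changed background correction, scaling, the source of values, the filter, the block and the arrays used. Cxcl5 differed by 1.78 in the authors' processed values, by 2.23 with background left in, by 2.56 under normexp with offset 50, and by 3.04 to 3.46 with 1 array left out. The 15 changed probes became 9 with no filter and 6 with the replicate block, and ran from 7 to 639 with 1 array left out. Leaving out wild-type replicate 1 gave the 639 (351 higher, 288 lower). Each other array left out gave 7 to 11, with 7 for knockout replicates 2 and 3 and wild-type replicate 2, and 8 for knockout replicate 1. The cause was not tested. Same-numbered knockout and wild-type arrays did not deviate together (correlations -0.27, -0.13 and -0.089), and the labels state no pairing. With 3 arrays per group, these correlations cannot show whether the samples were paired. Cxcl15 changed sign under 3 alternatives (-0.24 to 0.071) and Cxcl2 under 1 (-0.014 without knockout replicate 1), both near background. The alternatives were extended to the 17 named pathway genes after the data were seen. Irak2 lost its call with the authors' processed values (-0.59, limma adjusted p = 0.074) and with the replicate block (-2.18, limma adjusted p = 0.11). Without wild-type replicate 1, Ackr1, Cx3cl1, Bcl3, Tgfb1, F5 and Vegfc passed, as did Ccl9, which is outside the rule for named genes. Cxcr4 ran from -0.015 (without knockout replicate 1) to 0.089 (without knockout replicate 3) with 1 array left out, and was -0.026 without wild-type replicates 2 and 3. Ccl4 was 0.064 without that pair.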
